A study of Arabidopsis thaliana with 24 samples.

Results

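The genes described here were bright in whole siliques of Arabidopsis thaliana and dim in seeds taken out of the silique. They were chosen by their measured values: a probe set, the group of short probes that reads a transcript, became a member where its mean signal was at least 150 in each of siliques stages 3, 4 and 5 and at most 40 in each of seeds stages 6, 7, 8, 9 and 10. These limits were met by 43 of 22746 probe sets without controls, and 40 remained as members after ECS1, PIFI and AT2G45180 were set aside. The annotation names exactly 1 gene for 17 of the 40 and none for the other 23. The difference between siliques and seeds is what chose the members, so it is given as a description with no test, and the tests are of changes among silique stages and among seed stages.

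All plants were the accession Col-0, and total RNA was read on 24 Affymetrix ATH1 arrays, 3 in each of 8 groups. Whole siliques with the seeds inside were labelled stages 3, 4 and 5 (9 arrays), and seeds without siliques stages 6, 7, 8, 9 and 10 (15 arrays). Growth conditions are labelled for stage 3 only: long days, on soil. The labels do not say whether arrays of the same group stem from different plants, and p-values therefore cover only the spread among these arrays, possibly a technical one. The title letters are A, B and C at silique stage 3 and D, E and F at stages 4 and 5, so the letters and the stage cannot be told apart where stage 3 is compared. In a whole silique, RNA of the wall and of the seeds is read together, and fewer cells of a type and less RNA per cell cannot be told apart. Whole siliques were read only at stages 3 to 5 and isolated seeds only at stages 6 to 10. Tissue and stage therefore cannot be told apart in the difference that chose the members. A member may be a transcript of the wall, or one of young seeds that was low by stage 6.

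A silique is the fruit of Arabidopsis. Its green wall photosynthesises and transports sugars and minerals to the seeds it encloses, and at maturity it opens along a valve margin made of a lignified layer and a separation layer. Each seed holds an embryo and an endosperm within a seed coat, and fills with storage protein and oil as it matures.

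Arrays of the same group had log2 signals that correlated at 0.971 to 0.993 over all probe sets (probe sets are not replicates). The median signal of an array was 40.5 to 42.6 in siliques and 32.8 to 39.98 in seeds. Of the seed reserve list 2 genes were measured. PAP85, a vicilin-like storage protein, had mean signals of 10.9, 255 and 1731 in siliques stages 3, 4 and 5 and of 4274 to 11461 in seeds. OLEO3, an oil body protein, had 20.5, 2110 and 3279 in siliques, and 4552, 4486, 3337, 1597 and 1370 in seeds stages 6 to 10, so its late seed level was below that of siliques stage 5. The ratio of the 3′ to the 5′ control signal, a measure of RNA and labelling quality, differed in its course between control genes. For GAPDH it was 2.14 ± 0.185, 1.38 ± 0.0832 and 1.43 ± 0.0941 (SD, n = 3 each) in siliques stages 3, 4 and 5, and its group means in seeds were between 2.16 and 4.50. For ubiquitin it was 2.36, 1.81 and 1.79 in siliques and between 2.09 and 3.41 in seeds. For actin it ran the other way, with 11.6, 13.8 and 14.0 in siliques and 9.09, 9.79, 7.07, 5.23 and 4.93 in seeds stages 6 to 10. The 25S rRNA control signal had means of 69.2, 63.8 and 26.5 in siliques stages 3, 4 and 5. In seeds stages 6 to 10 its means were 785, 830, 3026, 110 and 2507, with arrays of seeds stage 8 between 119 and 4717. The part of these ratios and of the 25S rRNA signal in the differences and changes below was not tested.

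The seed limit of 40 lay about at the median of an array, so a member may still have had a signal in seeds, and "only in siliques" cannot be said strictly. Of the 600 values of members on seed arrays, 33 (5.5%) were above the median of their array and 23 were above 40 on that single array. Of the 40 members, 27 stayed at or below the median on every seed array and 13 passed it on at least 1. On silique arrays the members lay between percentiles 76.8 and 99.8 of their array, and on seed arrays between percentiles 0.317 and 57.1, with a median of 33.4. The ratio of a member's lowest silique mean to its highest seed mean had a median of 10.8 and a lowest value of 3.88. A ratio over a seed mean close to the 20th percentile of an array, as for AT3G28270 below, is not exact. Its highest seed mean was 20 or less for 13 members and 30 or more for 16. That highest mean stood at seeds stage 6 for 16 members, stage 7 for 1, stage 8 for 3, stage 9 for 9 and stage 10 for 11, so no single seed stage held the residual signal. The opposite pattern, at least 150 in each seed stage and at most 40 in each silique stage, was met by 19 probe sets.

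Several genes stood close to the limits. Just inside the silique minimum were AT1G10770 with a lowest silique mean of 150.2, SWEET17 with 151.8 and AT5G57785 with 159.5. Just outside it were AT3G07820, of the pectin lyase-like family, with 143.9, AT3G26960 with 139.8 and AT1G07440 with 138.8. Just inside the seed maximum were AT1G09310 with a highest seed mean of 36.8, NdhN with 36.7 and ALC with 36.6. Just outside it were AT3G01270, of the pectate lyase family, with 40.3, AT1G75900, of the GDSL lipase family, with 44.4 and AT2G25510 with 44.7.

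**Figure D1:**
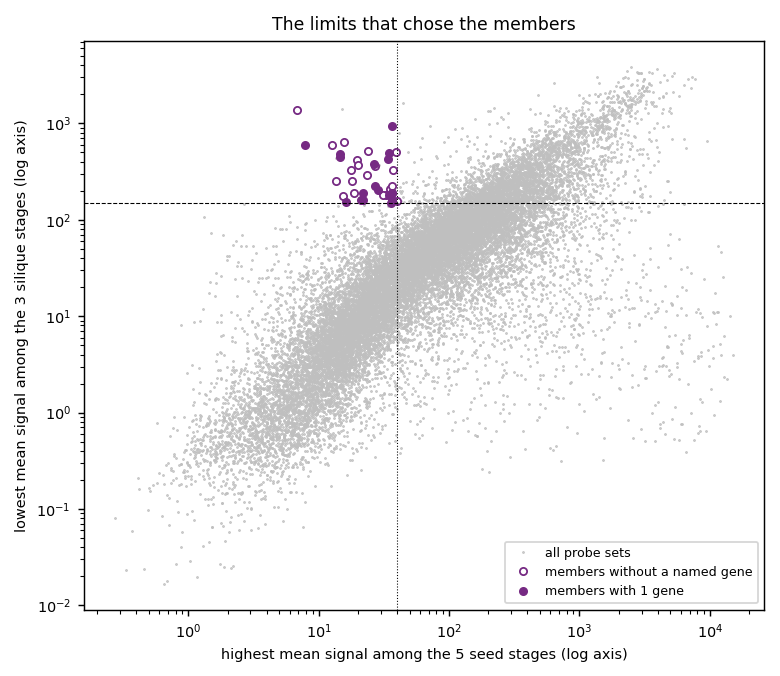
Each point is 1 probe set, with its highest mean signal among the 5 seed stages on the x axis and its lowest mean among the 3 silique stages on the y axis (MAS5 signal, log axes), and dashed and dotted lines at 150 and 40. The 40 members (filled for the 17 with a named gene, open for the 23 without) fill the upper left corner, where the remaining grey points are the 3 genes set aside, and many grey points lie close to both lines.

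Across the silique stages most of the members with a call moved down. In siliques stage 5 against 3, 18 of 40 members fell and 1 rose, and 21 were not called; of all 16967 probe sets tested, 10.9% were called lower and 10.4% higher. A call needed a Benjamini-Hochberg adjusted p under 0.05 and a fitted change of at least 2-fold, both from limma over all tested probe sets. The median change of the members was -0.91 on the log2 scale, 33 of 40 were below 0, and all tested probe sets had a median of -0.03. Among 3390 other probe sets that also reached 150 in every silique stage, 213 (6.28%) were called lower and 226 (6.67%) higher, with a median of -0.02. The highest silique stage was stage 3 for 30 members, stage 4 for 8 and stage 5 for 2, against 45.2%, 25.6% and 29.2% of those 3390. A gene that dropped below 150 at any silique stage could not be a member, so deeper falls are missing from these counts. Members also had to be at 40 or less from seeds stage 6 on, which the 3390 and all tested probe sets did not. That limit may favour transcripts already lower by silique stage 5, so the difference from these backgrounds is a description. All 40 members passed the filter on low signals through their silique arrays.

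More members were called at the first step than at the second, as was so for all tested probe sets. The median change of the members was about as large at each step. In siliques stage 4 against 3, 8 members fell and 2 rose, with a median of -0.47, where 9.46% of all tested probe sets were called lower and 9.4% higher. In siliques stage 5 against 4, 3 members fell and 0 rose (18 and 0 at an unadjusted p under 0.05), with a median of -0.41, where 1.44% of all tested probe sets were called lower and 1.89% higher. By the calls of both steps, 7 members fell and then had no call, 1 fell at both steps, 2 fell at the second step alone, 2 rose at the first step alone and 28 had no call at either. Of the 17 named genes, 3 fell at the first step, 1 at the second and 7 over both, and 0 rose in any of the 3 comparisons by limma. At an unadjusted p under 0.05 with any size of change, 1, 0 and 0 of the 17 were higher in stage 4 against 3, stage 5 against 4 and stage 5 against 3.

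**Figure D2:**
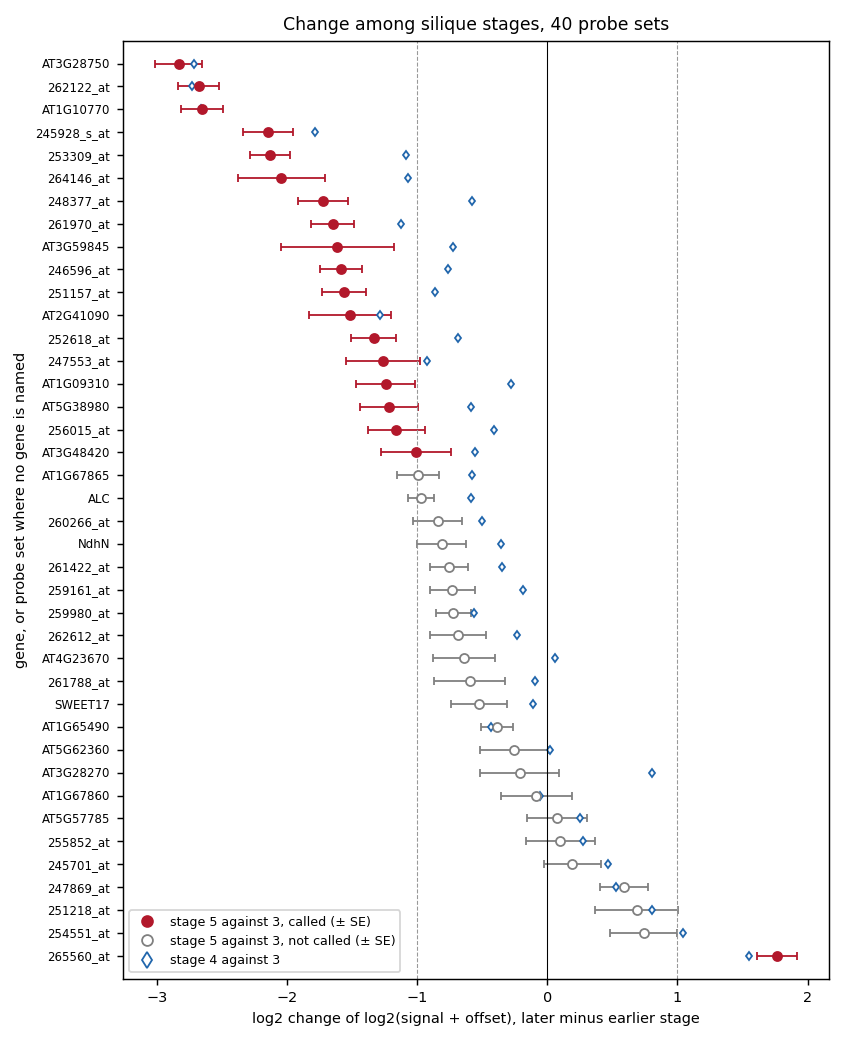
Fitted log2 changes among silique stages for all 40 members, in order of the change of stage 5 against 3 (circles with SE, n = 3 arrays a group, red where called), with stage 4 against 3 as blue diamonds; dashed lines mark a 2-fold change. The circles run between -2.84 for AT3G28750 and 1.77 at the bottom, and 33 of 40 lie left of 0.

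SWEET17 moves fructose across the vacuolar membrane and belongs to the SWEET family of sugar transporters. Its signals were 218, 219 and 226 at silique stage 3, 248, 193 and 178 at stage 4, and 132, 151 and 173 at stage 5, and 3.49 to 18.0 (median 9.82) on the seed arrays. Stages 3 and 4 overlapped, and stage 5 lay below both. The change of stage 5 against 3 was -0.53 ± 0.21 (SE) on the log2 scale, short of 2-fold (limma adjusted p = 0.037). It was 1 of 16 SWEET genes with a probe set of their own, of which 4 reached 150 in every silique stage, 8 stayed at 40 or less in every seed stage, and SWEET17 alone did both. For comparison, 3430 of 22746 probe sets without controls reached 150 in every silique stage, and 43 met both limits. The seed limit alone was not counted over all probe sets. This family was looked up after the members' values were seen. SWEET1, SWEET10 and SWEET11, the other genes of the family bright in siliques, had seed means of at least 163, 580 and 1117. SWEET4 was bright at stage 3 alone, with means of 360, 110 and 68.8 at silique stages 3, 4 and 5 and seed means of 27.5 or less. Of the other SWEET proteins known on the vacuolar membrane, SWEET16 had silique means of 21.6, 13.8 and 16.7 and at most 33.6 in seeds, and SWEET2 had silique means of 102, 28.6 and 23.5 and up to 89.4 in seeds.

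ALC (ALCATRAZ, AT5G67110) encodes a basic helix-loop-helix factor of the valve margin, needed for the separation layer along which the fruit opens. The gene had signals of 326, 297 and 348 at silique stage 3, 222, 214 and 202 at stage 4, and 166, 157 and 161 at stage 5, and 23.7 to 39.8 (median 27.9) on the seed arrays. Every stage lay below the one before it with no overlap. The drop of stage 5 against 3 was 2.01-fold in mean signal, but -0.97 ± 0.10 (SE) on the log2 scale with the offset, just short of the 2-fold limit (limma adjusted p = 5.3e-09). It gained the call with quantile normalization (-1.03), with no offset (-1.003) and without stage 3 replicate B (-1.03).

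ALC was the only member on any of the 12 gene lists looked up, which hold 166 genes, 27 of them with a probe set of their own. The list for silique wall patterning and opening had 4 such genes of 13. By limma 2 rose and 0 fell in both stage 4 against 3 and stage 5 against 3 (3 and 1 at an unadjusted p under 0.05, the 1 being ALC). Among all tested probe sets, 9.4% were called higher and 9.46% lower in stage 4 against 3. In stage 5 against 3 these shares were 10.4% and 10.9%. ADPG1, a polygalacturonase that loosens the separation layer, had means of 19.2, 66.5 and 117 at silique stages 3, 4 and 5 and up to 33.8 in seeds. SPT, a factor closely related to ALC, had 36.1, 87.1 and 125 in siliques, and up to 172 in seeds. YAB3, a factor of the valve, had 29.5, 48.6 and 59.3 in siliques and up to 154 in seeds, with no call. These genes ran upward in siliques where ALC ran downward, and SPT and YAB3 were not low in isolated seeds.

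NdhN (AT5G58260) is a nuclear-encoded subunit of the chloroplast NADH dehydrogenase-like complex, which returns electrons from the stroma to the photosynthetic chain. It had signals of 342, 329 and 338 at silique stage 3, 263, 262 and 259 at stage 4, and 185, 188 and 192 at stage 5. On the seed arrays it lay between 16.0 and 46.0 (median 22.7), with the 2 values above 40 both at stage 10. Silique stages did not overlap, and stage 5 against 3 gave -0.81 ± 0.19 (SE) on the log2 scale, with no call (limma adjusted p = 0.00068). NdhL, another nuclear-encoded subunit, missed membership at stage 5 alone, with means of 234, 183 and 124 at silique stages 3, 4 and 5 and at most 25.04 in seeds. NdhS had 480, 430 and 372 in siliques, and its seed means ran down the stages as 232, 149, 61.8, 55.1 and 57.2. Of 10 plastid-encoded ndh genes on the array, 6 reached 150 in every silique stage and 0 stayed at 40 or less in every seed stage. The silique minimum was reached by 3430 of 22746 probe sets without controls. This complex too was looked up after the members' values were seen.

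AT3G48420 encodes a chloroplast hydrolase of the haloacid dehalogenase-like family. The arrays gave 397, 421 and 437 at silique stage 3, 316, 259 and 273 at stage 4, and 210, 208 and 194 at stage 5, and 5.87 to 30.8 (median 18.5) in seeds. No stage overlapped another, and the gene fell 2.05-fold in mean signal in stage 5 against 3 (-1.01 ± 0.27 SE on the log2 scale, limma adjusted p = 0.0024). That call sits at the 2-fold limit: it was lost with 4 times the offset (-0.94), without stage 3 replicate C (-0.98) and without stage 5 replicate F (-0.97).

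Of the listed photosynthesis genes 5 were measured, and none met the seed limit at every stage. All 4 genes measured on the list for carbon fixation and photorespiration (RCA, PRK, SBPASE and HPR), and LHCB4.1 of the light-harvesting list, reached 150 in every silique stage, and 0 of the 5 stayed at 40 or less in every seed stage. Over the whole array, 3430 of 22746 probe sets without controls reached 150 in every silique stage. RCA, the activase of Rubisco, had means of 2637, 2680 and 2690 at silique stages 3, 4 and 5, and of 634, 397, 107, 81.8 and 82.0 at seeds stages 6 to 10. HPR, an enzyme of photorespiration, came nearest to the limit, with 282, 226, 67.0, 42.5 and 29.9 at seeds stages 6 to 10, the last of these within it. PRK, which makes the substrate of Rubisco, ran down to 57.6 and 43 at seeds stages 9 and 10. SBPASE and LHCB4.1 had means of 117 and 413 at seeds stage 10. None of these 5 genes had a call among silique stages by limma, where 1 of the 5 was lower at an unadjusted p under 0.05 in stage 5 against 3. That gene was SBPASE, with -0.68 ± 0.11 (SE) on the log2 scale, short of 2-fold (limma adjusted p = 5.5e-06).

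Both named members of the plant invertase and pectin methylesterase inhibitor superfamily, whose proteins restrain enzymes acting on pectin or sucrose, were bright in siliques but moved differently. AT5G62360 had signals of 582, 612 and 577 at silique stage 3, 470, 610 and 742 at stage 4, and 478, 536 and 469 at stage 5, and 2.49 to 41.9 (median 19.4) in seeds. Its stage 4 arrays were widely spread and overlapped both other stages, and stage 5 against 3 was -0.25 ± 0.26 (SE) on the log2 scale, with no call. AT1G10770 had 989, 969 and 1007 at stage 3, 159, 147 and 145 at stage 4, and 148, 146 and 159 at stage 5. In seeds it had 16.1 to 42.2 (median 27.9). Stages 4 and 5 overlapped closely, and both lay far below stage 3. AT1G10770 fell 6.58-fold in mean signal in stage 4 against 3 (-2.66 ± 0.16 SE on the log2 scale, limma adjusted p = 3.4e-13), and its second step was 0.01 with no call.

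An early fall of that kind was seen in AT3G28750 as well, a gene with no role given here. Its arrays read 1303, 1384 and 1301 at silique stage 3, 183, 195 and 211 at stage 4, and 154, 183 and 207 at stage 5, and 8.70 to 36.3 (median 27.4) in seeds. Stage 3 stood apart and stages 4 and 5 overlapped. Stage 4 against 3 gave a fall of 6.78-fold in mean signal (-2.72 ± 0.18 SE, limma adjusted p = 2.5e-12), and stage 5 against 4 gave -0.12 with no call. The member without a named gene that changed most in stage 4 against 3, singled out after its values were seen, followed the same course. This unnamed probe set had 1111, 1399 and 1368 at stage 3, 194, 183 and 186 at stage 4, and 216, 187 and 182 at stage 5, a fall of 6.88-fold at the first step (-2.73 ± 0.16 SE, limma adjusted p = 1.1e-13).

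Pollen markers also fell at the first step, where 9.46% of all tested probe sets were called lower. The pollen list holds 5 genes, of which 4 were measured by an own probe set and 3 tested. All 3 fell in stage 4 against 3, 2 of them also in stage 5 against 3 (limma), where 10.9% of all tested probe sets were called lower. Among the genes of other lists, some fell as far at the first step, such as THI2.1 (7.00-fold in mean signal) and STOMAGEN (8.88-fold). Others rose there, such as GI and PAP85. AT5G45880, a pollen protein of the Ole e 1 family, had signals of 1589.7, 1557 and 1569.6 at silique stage 3, 224, 233 and 219 at stage 4, and 239, 228 and 229 at stage 5. ANX2, a receptor kinase of the pollen tube, had means of 87.8, 11.6 and 10.5, and MGH3, a histone of the male germ line, had 27.3, 5.47 and 13.6. ANX1, untested because it was dim, had 14.1, 1.78 and 2.06. The summed signal of the 4 genes on an array was 1695 to 1711 at stage 3, 234 to 258 at stage 4 and 250.2 to 263 at stage 5, and 64.0 to 255 on seed arrays. In siliques most of this sum was the signal of AT5G45880, so it adds little on the other 3 genes. Unlike the members, AT5G45880 was not low in all seeds, with means of 55.7 at stage 6 and 195 at stage 10. The part of pollen RNA in the early falls was not tested.

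**Figure D3:**
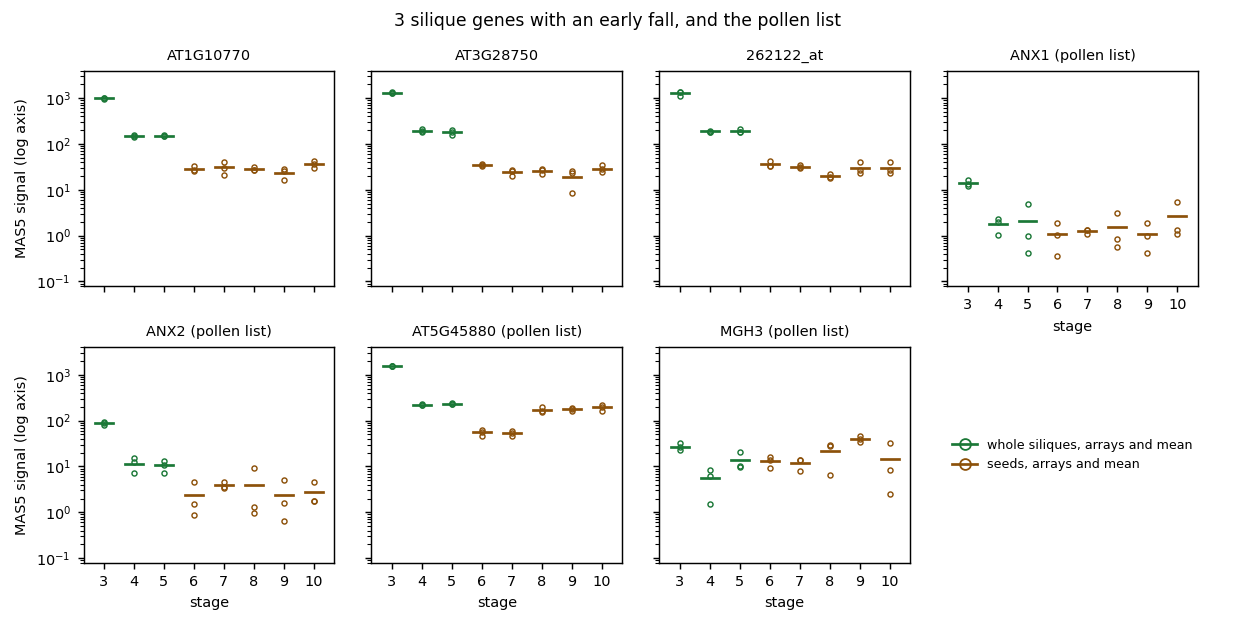
MAS5 signals (log axes) by stage for AT1G10770, AT3G28750 and the unnamed probe set just described, and for the 4 measured genes of the pollen list; circles are arrays and bars are group means (n = 3). In the first 3 panels stage 3 stands at 969 or more and stages 4 and 5 at 216 or less, and ANX1, ANX2 and AT5G45880 have a step at the same place.

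AT2G41090 encodes a calmodulin-like protein that binds calcium through EF hands. It had signals of 442, 517 and 466 at silique stage 3, 194, 190 and 186 at stage 4, and 145, 176 and 164 at stage 5, and 0.774 to 25.3 (median 4.94) in seeds. All 3 silique stages were separate, with the wide gap between stages 3 and 4. The gene fell 2.499-fold in mean signal at the first step (-1.29 ± 0.32 SE on the log2 scale, limma adjusted p = 0.0012) and 2.94-fold over both (-1.52 ± 0.32, limma adjusted p = 2e-04). Both calls were lost with no offset, though the fitted changes of -1.32 and -1.56 were as large.

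AT3G59845 encodes a protein of the zinc-binding dehydrogenase family. Its signals were 603, 575 and 592 at silique stage 3, 285, 407 and 379 at stage 4, and 203, 182 and 179 at stage 5, and 2.03 to 32.8 (median 15.3) in seeds. It stepped down at each stage without overlap, and fell 3.14-fold in mean signal in stage 5 against 3 (-1.62 ± 0.43 SE, limma adjusted p = 0.0025). This call too was lost with no offset (-1.65).

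AT1G09310, of a plant family known only as DUF538, fell late. It had 2273, 2233 and 2214 at silique stage 3, 1721, 1858 and 1946 at stage 4, and 941, 952 and 934 at stage 5, and 0.871 to 41.8 (median 14.2) in seeds. The stages did not overlap, and stage 5 stood well under stage 4. The fall in stage 5 against 3 was 2.38-fold in mean signal (-1.24 ± 0.23 SE, limma adjusted p = 4.2e-05), of which stage 5 against 4 held -0.96 and stage 4 against 3 held -0.28, neither with a call. The call in stage 5 against 3 was lost with no offset.

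AT5G38980, a gene with no role given here, fell by about equal steps. The arrays gave 898, 923 and 850 at silique stage 3, 556, 592 and 621 at stage 4, and 359, 382 and 394 at stage 5, and 4.27 to 28.3 (median 12.5) in seeds. No arrays overlapped between stages. Stage 5 against 3 was a fall of 2.35-fold in mean signal (-1.22 ± 0.22 SE, limma adjusted p = 4.4e-05), with -0.59 at the first step and -0.63 at the second.

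AT3G28270, a protein of the At14a-like family, peaked at stage 4. Its signals were 746, 639 and 687 at silique stage 3, 1063, 1279 and 1299 at stage 4, and 604, 633 and 545 at stage 5. In seeds they were 0.536 to 12.4 (median 6.90), and the ratio of the lowest silique to the highest seed mean was 75.4. Stage 4 lay above both others without overlap. It fell 2.04-fold in mean signal in stage 5 against 4 (-1.02 ± 0.30 SE, limma adjusted p = 0.019), after a first step of 0.80 that was not called. The fall was lost in 6 of the alternatives, among them those without stage 4 replicate E (-0.98), without stage 4 replicate F (-0.97) and without stage 5 replicate F (-0.96).

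AT4G23670, of the major latex protein family, held its level through stage 4. It had 665, 724 and 719 at silique stage 3, 786, 704 and 708 at stage 4, and 456, 441 and 447 at stage 5, and 0.377 to 17.4 (median 5.43) in seeds. Stages 3 and 4 overlapped and stage 5 lay below both. The change of stage 5 against 4 was -0.70 ± 0.24 (SE), short of 2-fold (limma adjusted p = 0.041). Its neighbour and relative AT4G23680 had silique means of 24.2, 96.1 and 67.8 and at most 17.4 in seeds.

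The remaining 4 named genes have no role given here, and none had a call among silique stages by limma. AT1G67865 had signals of 917, 1028 and 954 at silique stage 3, 705, 619 and 609 at stage 4, and 464, 504 and 477 at stage 5, and 6.23 to 16.8 (median 11.9) in seeds. Its stages did not overlap, and stage 5 against 3 was -0.99 ± 0.16 (SE), 2.01-fold in mean signal and just short of the limit (limma adjusted p = 8.5e-06). It gained the call in 5 alternatives, among them those without stage 3 replicate A (-1.03), without stage 3 replicate C (-1.001) and without stage 5 replicate E (-1.03).

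AT1G65490 read 568, 591 and 567 at silique stage 3, 429, 453 and 391 at stage 4, and 394, 442 and 481 at stage 5, and 10.6 to 34.8 (median 15.9) in seeds. Stages 4 and 5 overlapped below stage 3, with a change of -0.39 ± 0.12 (SE) in stage 5 against 3. AT1G67860 read 232, 236 and 252 at stage 3, 261, 207 and 226 at stage 4, and 222, 239 and 217 at stage 5, and 1.96 to 32.4 (median 17.8) in seeds. AT5G57785 read 149, 187 and 143 at stage 3, 192, 179 and 198 at stage 4, and 166, 166 and 170 at stage 5, and 0.962 to 28.6 (median 14.4) in seeds. In both genes stages 3 and 5 overlapped, with changes of -0.09 ± 0.27 and 0.07 ± 0.23 (SE) on the log2 scale.

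**Figure D4:**
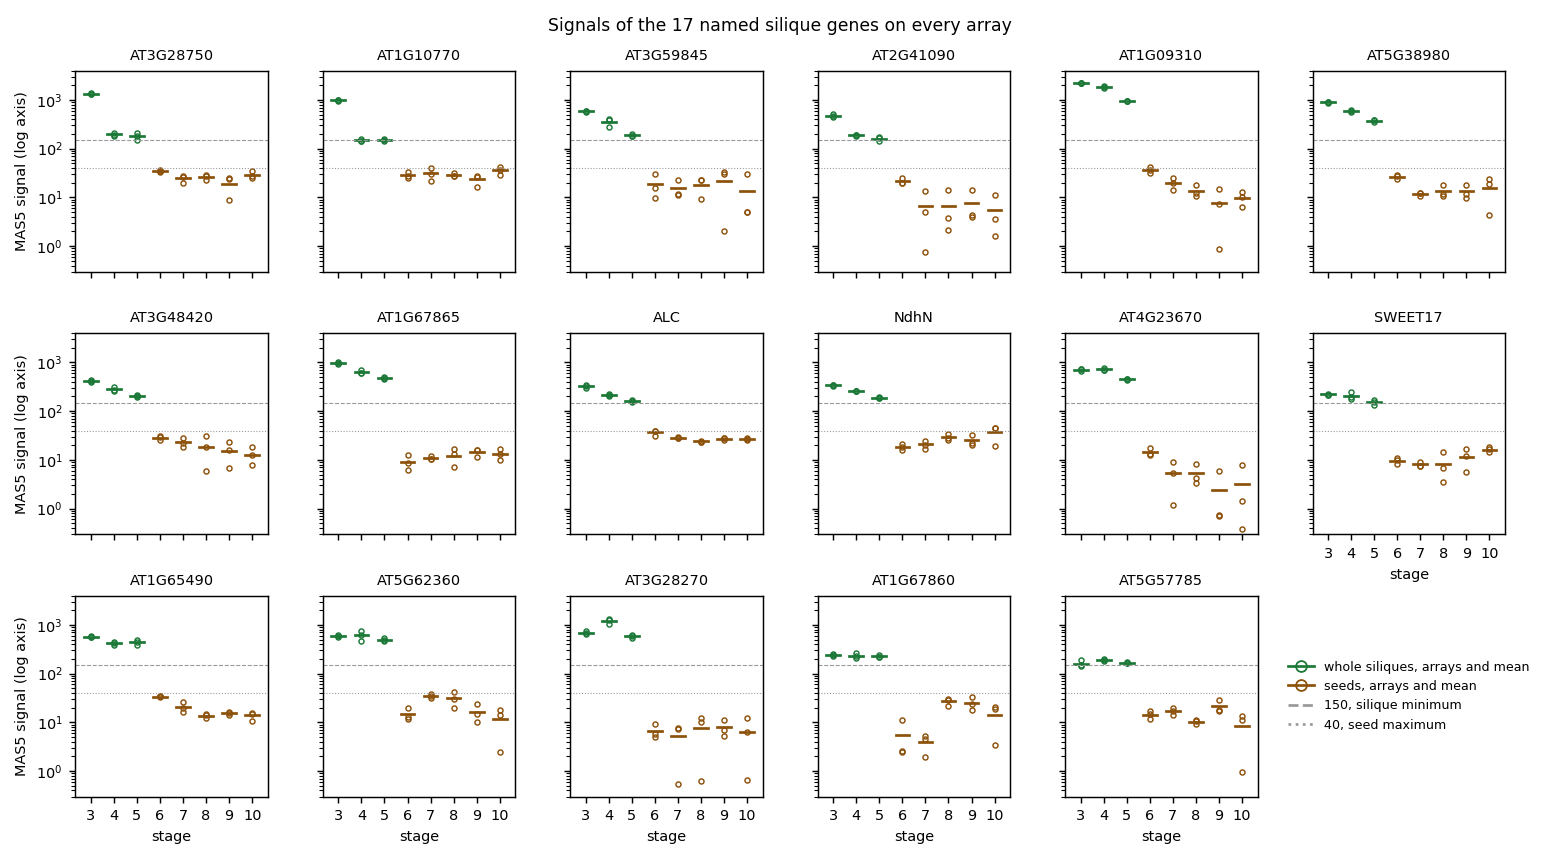
MAS5 signals (log axes) by stage for the 17 members with a named gene, ordered by their change in siliques stage 5 against 3; green circles are whole siliques, brown circles seeds, bars group means (n = 3), and the lines mark 150 and 40. AT3G28750 and AT1G10770 step down between stages 3 and 4, AT3G28270 peaks at stage 4, and AT1G67860 and AT5G57785 stay near their stage 3 level at stage 5.

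AT1G67860 and AT1G67865 are neighbours on chromosome 1. Placed by gene order in the reference table, the 17 named genes lie on all chromosomes: 5 on chromosome 1, 1 on chromosome 2, 4 on chromosome 3, 2 on chromosome 4 and 5 on chromosome 5. Within 2 protein-coding genes on either side 38 probe sets were found, of which 2 were members, this pair, 7 reached 150 in every silique stage and 24 stayed at 40 or less in every seed stage. For comparison, 3430 of 22746 probe sets without controls reached 150 in every silique stage. The seed limit lay about at the median of an array, and probe sets within it were not counted over the whole array. The 24 is therefore not read as a trait of the neighbours. AT1G67870, next to AT1G67865 on the other side, was another silique gene that missed the limit at stage 3, with means of 111, 415 and 300 at silique stages 3, 4 and 5 and at most 5.90 in seeds; it rose in stage 5 against 3 (1.38 on the log2 scale, limma), where AT1G67865 and AT1G67860 had no call. Adjacent genes can be similar in sequence, and whether their probes read one another's transcripts was not tested. AT5G62350, next to AT5G62360, had 1563, 704 and 720 in siliques and up to 292 in seeds.

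The 23 members without a named gene had lowest silique means between 155 and 1382 and highest seed means between 6.84 and 39.996. In stage 5 against 3, 11 of them fell and 1 rose, where 10.9% of all tested probe sets were called lower and 10.4% higher, and their median change was -0.84. An unnamed probe set, singled out after its values were seen, had silique signals between 1317 and 2346 and seed signals between 0.630 and 10.8. Its highest seed mean, 6.84, lay below 6.97, the 20th percentile of an array, so no exact ratio is read from it. The 1 that rose, also chosen after the fact, had 172, 179 and 186 at stage 3, 555, 505 and 554 at stage 4, and 725, 599 and 565 at stage 5 (1.77 on the log2 scale in stage 5 against 3, limma). Its arrays at stages 4 and 5 lay well above stage 3 with no overlap.

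The other lists had few genes with probe sets of their own and no member. Beside their counts in stage 5 against 3, 10.9% of all tested probe sets were called lower and 10.4% higher. On the guard cell list 5 of 12 genes were measured and 3 tested, of which 2 fell in stage 5 against 3 by limma, among them STOMAGEN, a peptide that promotes stomata (means of 151, 17 and 51.0 at silique stages 3, 4 and 5). THI2.1, a jasmonate-responsive thionin and the 1 tested gene of the defence list, fell at both steps, with means of 2983, 426 and 99.2. Both seed reserve genes rose in stage 5 against 3, GI of the circadian clock rose, with means of 62.9, 252 and 227, and GUT2, a xylan synthesis gene of the secondary wall list, rose, with 49.7, 321 and 144. None of 3 glucosinolate genes had a call by limma in stage 5 against 3, where 2 were higher at an unadjusted p under 0.05. These were UGT74B1 (0.72 on the log2 scale, limma adjusted p = 0.0001) and GTR1 (0.38, limma adjusted p = 0.00072), both short of 2-fold. The lists for epidermal wax and cutin and for vascular tissue had no gene with a probe set of its own. STOMAGEN and THI2.1 thus moved down beside the early falls and GI and the reserve genes moved up, and their part in the members' changes was not tested.

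Within isolated seeds the rule holds every group mean of a member at 40 or less, and this ceiling limits how far a member could change. In seeds stage 10 against 6, 5 of 40 fell and 1 rose by limma, and the members' median was -0.16 on the log2 scale. Of all tested probe sets 19.7% were called lower and 14.1% higher, but the ceiling on the members means that nothing can be read from that comparison. Among the named genes AT1G09310 fell (9.84 ± 3.23 at stage 10 against 36.8 ± 4.81 at stage 6, SD, n = 3 each), as did AT2G41090 and AT4G23670, with changes of -1.39, -1.28 and -1.14. Their arrays at stages 10 and 6 did not overlap. These are differences among low signals and shift with the offset: with 4 times the offset 0 members were called lower, and with no offset 9. No named gene rose; NdhN gave 0.71 ± 0.19 (SE), short of 2-fold, with overlapping arrays of 18.9, 45.2 and 46.0 at stage 10 and 18.7, 16.0 and 20.8 at stage 6.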

How the data were processed

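The authors deposited linear MAS5 signal intensity values, as the submitters' processing notes name the tool, with no version given in the sources used here. Scaling by the authors shows in the values: between its 2nd and 98th percentile every array had a mean of 100.008 to 100.01, so each value is relative to the rest of its array. No detection calls were used, and precision is limited by 3 arrays a group.

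Of 22810 probe sets, 64 controls were left out. Probe sets above the 40th percentile of their array on at least 3 arrays were tested (16967), on the scale log2(signal + 6.97). This offset, the 20th percentile of an array (median of all arrays), shrinks changes of dim genes. Differences were fitted with limma 3.58.1 in R 4.3.3 (1 mean per group over all 24 arrays, eBayes with a trend, 16 residual degrees of freedom), so the SEs also hold the spread of the dim seed signals. On simulated data with 200 changed probe sets of 16967, 93.5% of 2.5-fold and 99% of 4-fold changes were called in siliques stage 5 against 3. Apart from these changes, every simulated probe set had 1 mean over all 24 arrays. The rates therefore do not describe the members, which were bright in siliques and dim in seeds. Figures used matplotlib 3.10.9.

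By the annotation 13513 probe sets have 1 gene, 503 have several and 8794 have none; 13436 of the 13513 matched the reference gene table, and 15 of the 17 named members did so by gene number and the other 2 by locus. All 17 are named. Values on every array were to be given for the 6 highest and 6 lowest changes of stage 5 against 3, the 3 highest and 3 lowest silique to seed ratios, and 1 gene per function group, which came to all 17. Up to 3 genes per list were to be named, by largest change; on the pollen, silique wall and carbon fixation lists all 4 measured genes are. Folds in mean signal are ratios of group means without the offset. The members and the gene lists were chosen with earlier results of these data known, and the SWEET and NDH genes and the chromosome neighbours after values were seen. Alternatives changed the limits, offset, normalization, scaling, filter, variance model, samples fitted and arrays left out. Promoter motifs were planned, but no sequences were used here.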

Additional observations from a re-analysis of the deposited data

How the results depend on the processing

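The number of members, 40, moved most with the limits that define them: 24 with a seed limit of 30, 64 with a silique minimum of 100 and 24 with 200, and 37 to 42 with single arrays left out. The number of members lower in siliques stage 5 against 3, 18 in the main fit, was between 17 and 21 in every alternative. These were not always the same members. Of the 19 called in that comparison 4 lost the call in at least 1 alternative, and of the 21 not called 3 gained it. In stage 4 against 3 the 2 members called higher became 1 with no offset and 1 with 4 times the offset. In stage 5 against 4 the 3 called lower became 1 with 4 times the offset and 5 with quantile normalization. In seeds stage 10 against 6 the 5 called lower became 9 with no offset, 0 with 4 times the offset and 4 to 8 with single arrays left out (8 without seeds stage 10 replicate B), and the 1 called higher became 5 with no offset, 0 with 4 times the offset, 0 to 3 with single arrays left out, and 2 with quantile normalization and with scaling to the 75th percentile. Over all probe sets, 4 times the offset lowered the calls of stage 4 against 3 from 1605 to 1036 (lower) and of stage 5 against 4 from 244 to 115 (lower) and from 320 to 197 (higher). Within the 4 comparisons tested, siliques stages 5 and 4 share the title letters D, E and F. Seeds stages 10 and 6 share A and B. In siliques, same-letter deviations correlated at 0.102, 0.0004 and 0.0791 for D, E and F. Unlike letters gave -0.113 to 0.0479, so the values for D and F lay above these and that for E among them. The letters were not taken to pair arrays, and whether they mark a batch was not tested. With the letter as a replicate block the members lower stayed at 3 in stage 5 against 4 and at 5 in seeds stage 10 against 6, and the 1 higher in seeds became 0. For siliques stages 4 and 5 against 3 no such block could be fitted, since stage 3 has the letters A, B and C and stages 4 and 5 have D, E and F. No call turned its sign; uncalled changes did so 3, 8, 0 and 18 times in stage 4 against 3, 5 against 4, 5 against 3 and seeds 10 against 6. AT1G09310 kept a change of -1.25 with no offset in stage 5 against 3 while it lost the call. The causes were not tested.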
